A study of Arabidopsis thaliana with 4 samples.

Results

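The 5 Arabidopsis loci AT1G51890, AT1G51790, AT1G51805, AT5G59670 and AT5G59680 encode receptor-like kinases of leucine-rich repeat (LRR) subfamily I. They were chosen by locus, with earlier results of the same mutant comparison known, and 5 of 5 had a probe set paired with that gene alone, out of 13436 probe sets paired with a single matched gene. The comparison of smg7b with wild type had entered their choice, so their values are a description and no test is given for them. Expression had been measured with the Affymetrix ATH1 array in whole plants of the Col-0 accession, 2 wild-type samples and 2 smg7b samples, 1 sample to an array. The smg7b plants carried a T-DNA insertion (a stretch of bacterial DNA that can break a gene) and came from the single line SALK_050115, so other changes in that line cannot be told apart from the insertion. All plants had grown in 5 inch pots under continuous light at 22 °C and 65% humidity for 17 days after germination. Nothing in the labels states that replicates were separate plants or pools, and the p-values given for other genes therefore cover only how far these samples lie apart, a spread that may be purely technical.

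Subfamily I kinases sit in the plasma membrane, with an outer part that joins a malectin-like domain (named after an animal protein that binds sugars) to a few leucine-rich repeats, and a kinase inside the cell. Many of their genes lie in tandem rows left by local duplication. The best known members, IOS1 and FRK1, belong to the first layer of plant immunity. IOS1 associates with receptors that detect microbial molecules, and FRK1 is a standard readout of flagellin perception. No ligand or cell function is given here for the 5 genes themselves.

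The series asks which transcripts SMG7b acts on. SMG7b belongs to nonsense-mediated mRNA decay, which removes transcripts with premature stop codons. The disrupted gene itself, AT1G28260, fell by 1.64 on the log2 scale (standard error 0.30, n = 2 per genotype, adjusted p = 0.00253 in limma with Benjamini-Hochberg adjustment). Standard errors throughout are limma's moderated values, which borrow from the spread of other probe sets and can be smaller than a gene's own spread. Signals are scaled units on a linear scale, and the background of an array is its brightest bacterial control probe set, 6.42 to 9.21 units, above which 72.0% to 75.5% of the plant probe sets lay. In the mutant comparison, limma called 2771 of the 13648 probe sets it tested at the threshold of 0.05 (20.3%), with 11.3% higher and 9.00% lower in smg7b. Of the calls 55.7% were on the higher side, against 42.2% when medians of the arrays were set equal. Leaving out single arrays changed the count, but such fits leave 1 array in a genotype and their counts are not comparable with this one. The ratio of the 3' to the 5' Actin control probe set, which rises as RNA is shortened from its 5' end, was 17.5 and 41.7 on the wild-type arrays against 106 and 57.3 on the smg7b arrays. It moved with the genotype, as did the same ratio for GAPDH (1.45 and 2.53 in wild type, 8.34 and 3.84 in smg7b). The part of the Actin ratio in the results was not tested beyond the fit with it as a covariate, which cannot separate it from genotype. A gene is called measured here if it had a single-gene probe set. Other genes may still have a probe set on the array, because 8794 probe sets were unnamed here. Of the marker lists, leaf genes were bright (2 of 9 measured, RCA and PRK, summed signal 7918 and 9795 in wild type, 6259 and 6412 in smg7b). Root hair genes EXPA7 and EXPA18 (2 of 10 measured) summed to 24.0 and 10.3 in wild type and to 1.99 and 7.94 in smg7b, with each of their smg7b values below background, and the senescence marker SAG29 (1 of 4 measured) read 0.73 and 10.9 on the wild-type arrays and 4.56 and 3.28 on the smg7b arrays. No flower or seed marker had a single-gene probe set. In whole-plant RNA, more cells that express a gene and more RNA per cell cannot be told apart.

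Of the 5 kinase genes, 4 were brighter on both smg7b arrays than on both wild-type arrays, and AT1G51805 was not. The groups did not overlap for these 4 genes (for 61.3% of all probe sets tested). Nothing is read from this count, because the comparison had entered the choice of the genes. The log2 differences of the 5 genes ran from 0.19 to 6.21 with a median of 2.44, beside a median of -0.015 over all probe sets tested.

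AT1G51890 had the largest difference of the 5. Its signal was 8.04 and 0.80 on the wild-type arrays and 213 and 167 on the smg7b arrays. In wild type the first value lay just above the background of its array and the second below it, so the gene was at the edge of detection there, whereas both smg7b values were far above background. The log2 difference was 6.21 (moderated standard error 0.76), beside a standard deviation of 1.67 between arrays of a genotype for this gene. Because the 2 wild-type arrays lay 3.32 log2 units apart, the size rests on which of them is used. Against wild-type replicate 1 alone it was 4.55, against wild-type replicate 2 alone it was 7.87, and with every value raised to the background of its array it was 4.71.

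AT1G51790, the first subfamily gene of the same tandem row, read 12.6 and 11.5 on the wild-type arrays and 142 and 123 on the smg7b arrays. All 4 values were above background, and the arrays of a genotype lay within 0.20 log2 units of each other. The fold was 10.99, a log2 difference of 3.46 (standard error 0.26).

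AT1G51805 lies in the same row and behaved differently. It read 359 and 492 on the wild-type arrays and 533 and 434 on the smg7b arrays. It was well above background on every array, and the genotypes overlapped, wild-type replicate 2 being brighter than smg7b replicate 2. The log2 difference was 0.19 (standard error 0.22), close to the 0.27 that was the standard deviation between arrays of a genotype, and its sign turned when wild-type replicate 1 was left out (-0.034) and in the model with the Actin ratio (-0.35).

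The chromosome 5 genes are direct neighbours with a smaller difference. AT5G59670 read 39.0 and 45.3 on the wild-type arrays and 247 and 211 on the smg7b arrays. Its arrays were close within each genotype, and the smg7b signal was 5.43-fold that of wild type (log2 difference 2.44, standard error 0.21). AT5G59680 read 23.0 and 18.6 on the wild-type arrays and 59.0 and 67.7 on the smg7b arrays. It had the smallest difference of the 4 genes whose groups did not overlap, 3.06-fold (log2 1.61, standard error 0.28).

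**Figure D1:**
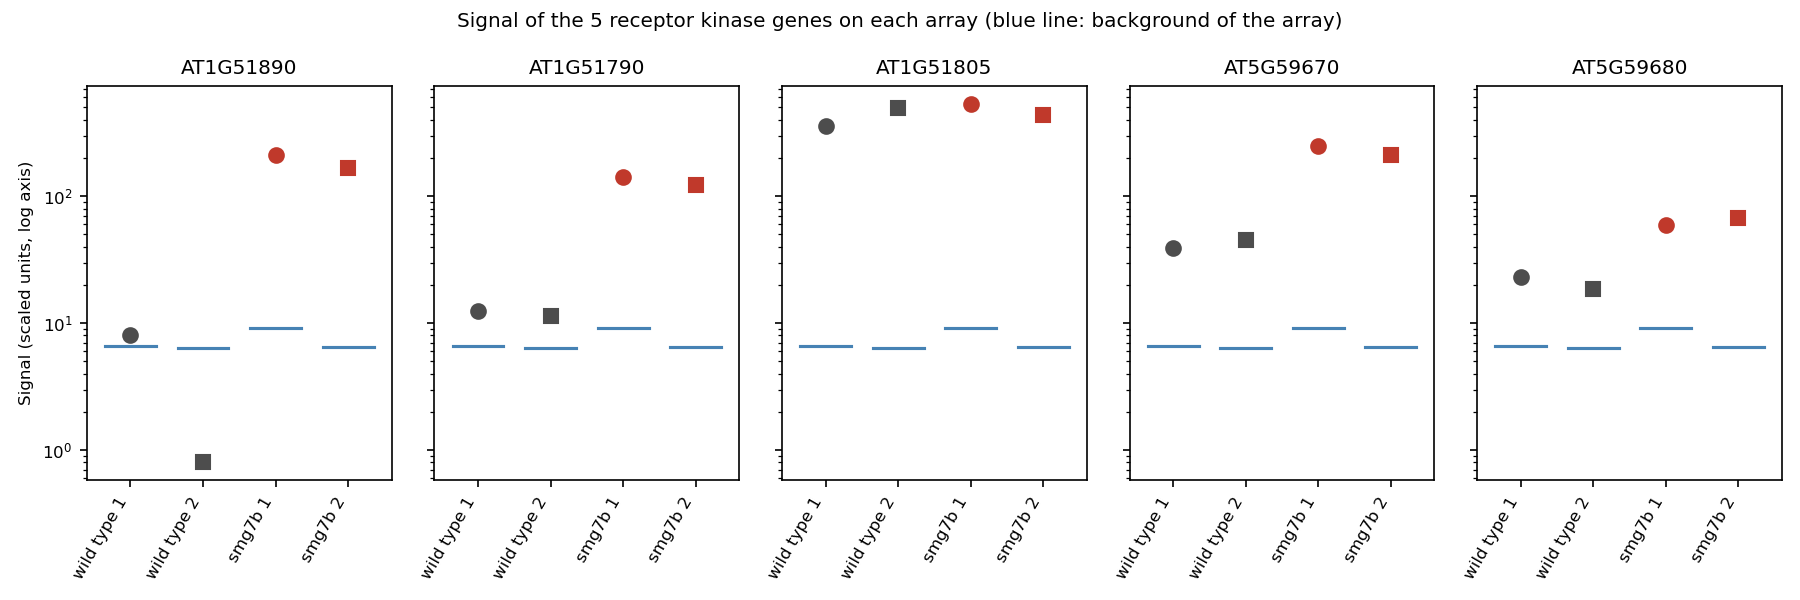
Signal of each of the 5 genes (panels) on each of the 4 arrays, in scaled units on a log axis, with wild type in grey, smg7b in red, circles for replicate 1, squares for replicate 2 and a blue line at the background of the array. In AT1G51890, AT1G51790, AT5G59670 and AT5G59680 both smg7b points lie above both wild-type points, while in AT1G51805 the points of the genotypes overlap between 359 and 533 units.

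Arrays of a genotype also differed within the 5 genes. Smg7b replicate 1 was brighter than replicate 2 for 4 of the 5 genes, with AT5G59680 the exception, and wild-type replicate 1 was brighter than replicate 2 for 3 of them (AT1G51890, AT1G51790 and AT5G59680). Without smg7b replicate 1, the array with the highest Actin ratio, the log2 differences of AT1G51890, AT1G51790, AT5G59670 and AT5G59680 were 6.04, 3.36, 2.33 and 1.71. With the Actin ratio in the model they were 8.70, 3.45, 2.14 and 1.97. No sign changed among these 4 genes in that model, and their sizes moved in both directions. The Actin ratio was higher on both smg7b arrays than on both wild-type arrays, so the model cannot separate RNA quality from genotype.

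**Figure D2:**
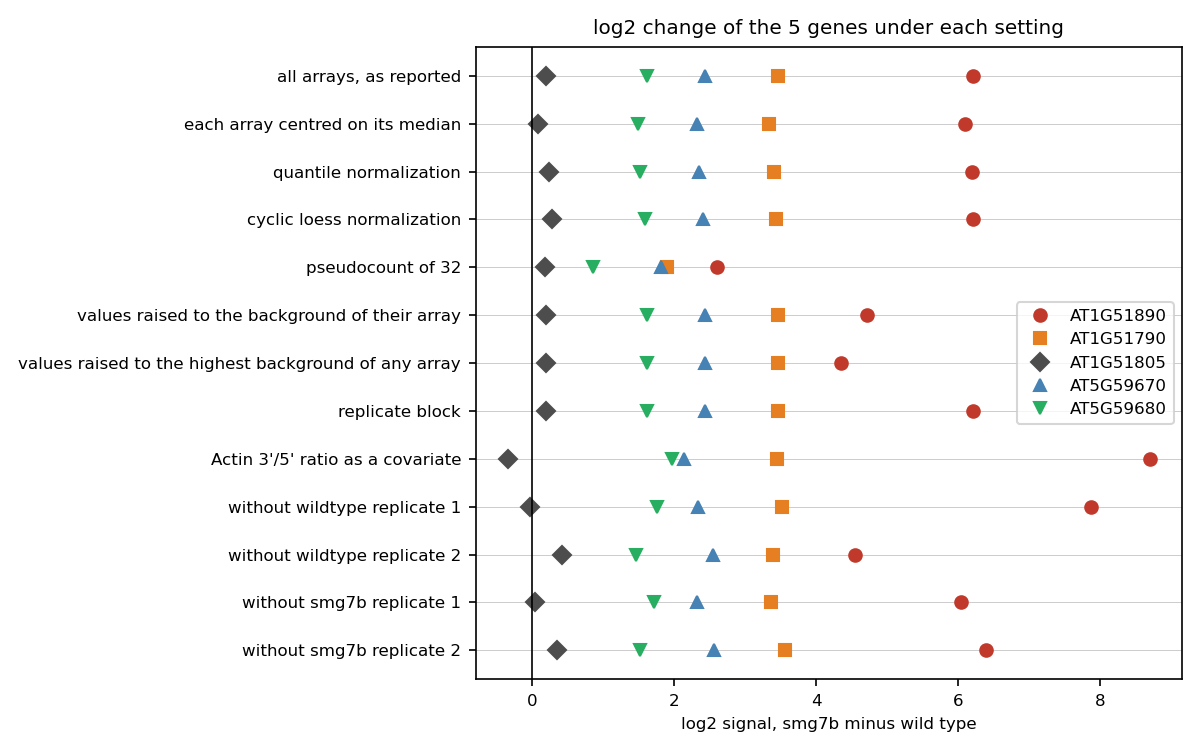
The log2 difference between smg7b and wild type (horizontal axis) of the 5 genes under each processing setting (rows), with 1 symbol per gene. The points of AT1G51890 spread from 2.61 with a pseudocount of 32 to 8.70 with the Actin ratio in the model, those of AT1G51805 lie on both sides of 0, and the other 3 genes stay between 0.85 and 3.56.

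The rest of the subfamily was then examined from a list of 43 further loci, recalled from general knowledge. Of these, 32 had a single-gene probe set and 11 did not, among them IOS1, FRK1 and MEE39, which are not analysed here. Most of the 32 were dim. In wild type 16 lay at or below background on both arrays, in smg7b 19 did, and 12 did so on all 4 arrays. Only 2 were bright enough for the filtered test, and 0 passed it in limma, although both had an unadjusted p below 0.05. AT1G67720 gave 0.57 (standard error 0.24, adjusted p = 0.125) and AT2G37050 gave -0.55 (standard error 0.23, adjusted p = 0.111). The median of these 2 was 0.011. AT2G37050 gave -0.81 without wild-type replicate 2.

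The filter keeps probe sets by their mean signal, so it removes genes that are off in 1 genotype and moderate in the other. Without it, limma called 10.5% of 22746 probe sets (6.44% higher and 4.04% lower), and 3 of the 32 subfamily genes (9.38%), all 3 higher in smg7b. That share is near the background. The median log2 difference of the 32 was -0.33, beside -0.030 over all probe sets. With values raised to the background of their array it was 0.25, beside 0.15. That 0.25 is set by the floors, because the background was highest on smg7b replicate 1 (9.21 units). Each of the 12 genes below background on all 4 arrays takes this value by construction, so no rise in smg7b is read from it. Of the 32 genes, 16 had groups that did not overlap (50%, against 52.5% of all probe sets), 8 with smg7b higher and 8 with smg7b lower.

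The 3 called genes lie in the tandem row of AT1G51890. AT1G51850 read 0.40 and 0.39 on the wild-type arrays and 101 and 91.4 on the smg7b arrays. This was at least 14.8-fold higher (adjusted p = 1.94e-04 in limma without the filter). Its wild-type arrays were far below background and its smg7b arrays far above. AT1G51860, the next gene, read 0.47 and 0.48 on the wild-type arrays and 76.1 and 52.1 on the smg7b arrays. This was at least 9.70-fold higher (adjusted p = 5.63e-04). Both were called under every alternative applied to this fit that kept all arrays, including the Actin ratio in the model. Their direction held with each array left out. Folds marked "at least" set the mean of the brighter genotype against the background of the other, whose arrays both lay below it. AT1G51820 was less firm. It read 1.23 and 0.26 on the wild-type arrays and 9.60 and 11.2 on the smg7b arrays. This was at least 1.60-fold higher (adjusted p = 0.0430), and the call was lost without wild-type replicate 2 (adjusted p = 0.0749), without either smg7b array (0.219 and 0.187), with the Actin ratio in the model (0.0837), with robust moderation (0.0539), after quantile normalization (0.050001, just above the threshold) and with values raised to the background (0.264).

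**Figure D3:**
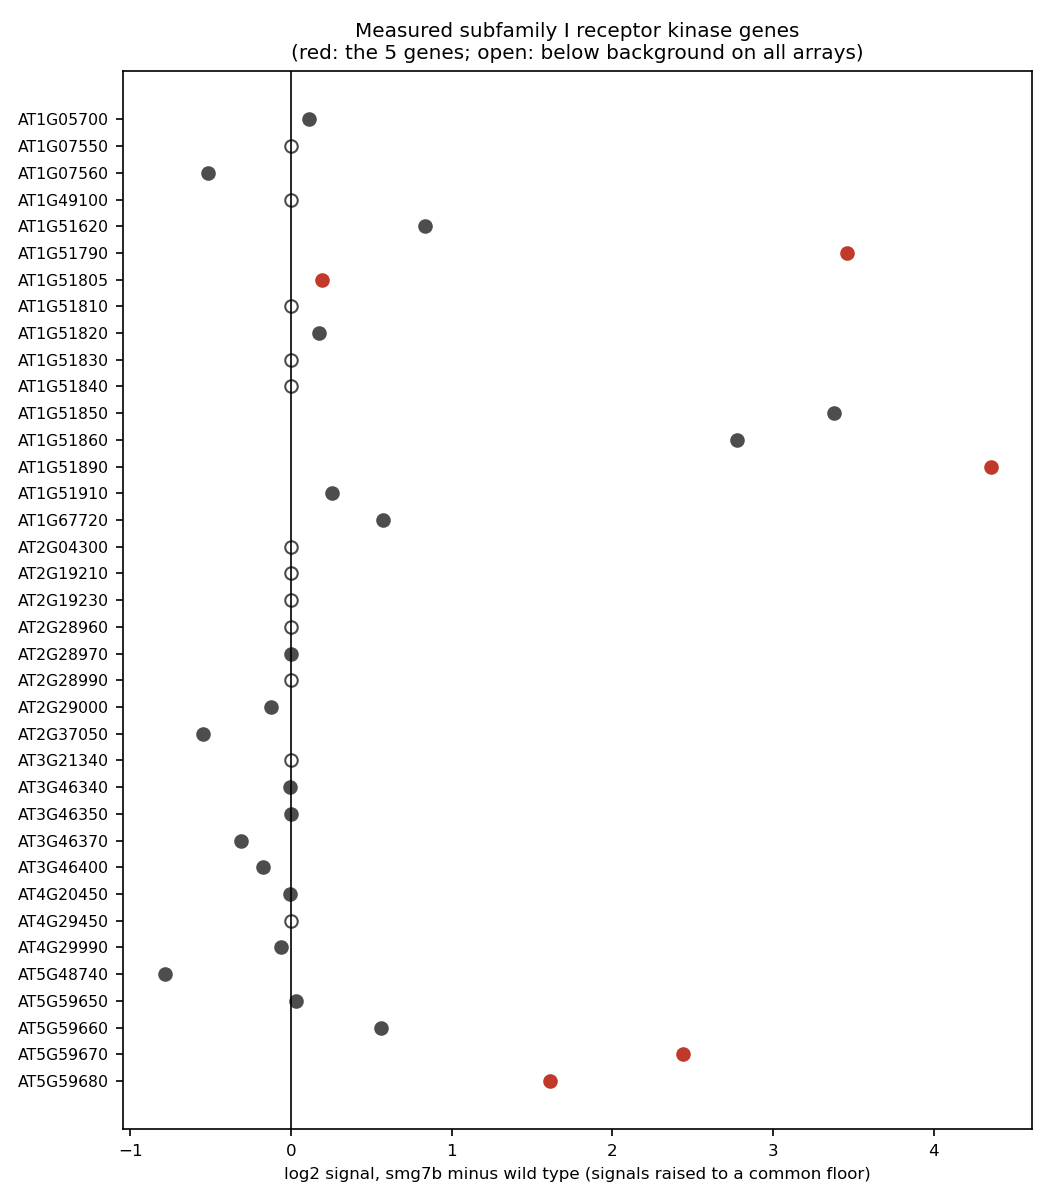
The log2 difference between smg7b and wild type (horizontal axis) for the 37 measured subfamily I genes in locus order, computed after every signal under 9.21 units, the highest background of any array, was raised to that value. The 5 chosen genes are red, the others grey, and open circles mark genes below background on all 4 arrays; AT1G51890, AT1G51790, AT1G51850, AT1G51860, AT5G59670 and AT5G59680 lie beyond 1.5, and all other genes lie below 1.

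In the reference order of genes, the row from AT1G51790 to AT1G51910 holds 13 subfamily loci among 15 protein-coding genes, and 10 of the 13 were measured. IOS1, between AT1G51790 and AT1G51805, and AT1G51870 and AT1G51880, between AT1G51860 and AT1G51890, had no single-gene probe set. The measured genes of the row include some that were higher in smg7b and some that were not. The next measured genes after AT1G51790 (higher in smg7b) are AT1G51805 (overlapping), AT1G51810 (0.72 and 5.74 in wild type, 0.98 and 0.96 in smg7b) and AT1G51820. AT1G51830 and AT1G51840 follow, below background on all 4 arrays. AT1G51850, AT1G51860 and AT1G51890 were then off or at the edge of detection in wild type and clearly present in smg7b. AT1G51910, the last of the row, read 7.57 and 10.2 on the wild-type arrays and 14.6 and 6.13 on the smg7b arrays, with overlapping groups. Of the 10 measured genes, 3 were above background on both wild-type arrays and 6 on both smg7b arrays. Over all 22746 probe sets these counts were 16009 and 15725. The 10 include AT1G51790, AT1G51805 and AT1G51890, which were chosen with this comparison known, so nothing is read from the counts.

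The chromosome 5 row from AT5G59650 to AT5G59680 holds 4 subfamily genes, all measured and all above background on every array. AT5G59650 read 13.7 and 15.9 on the wild-type arrays and 14.5 and 15.5 on the smg7b arrays. AT5G59660 read 8.74 and 12.96 against 19.5 and 13.2, which did not pass (log2 0.60, standard error 0.57, adjusted p = 0.601 without the filter). In this row AT5G59670 and AT5G59680 stood clear of their wild-type signals, the groups of AT5G59650 overlapped, and those of AT5G59660 nearly touched.

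**Figure D4:**
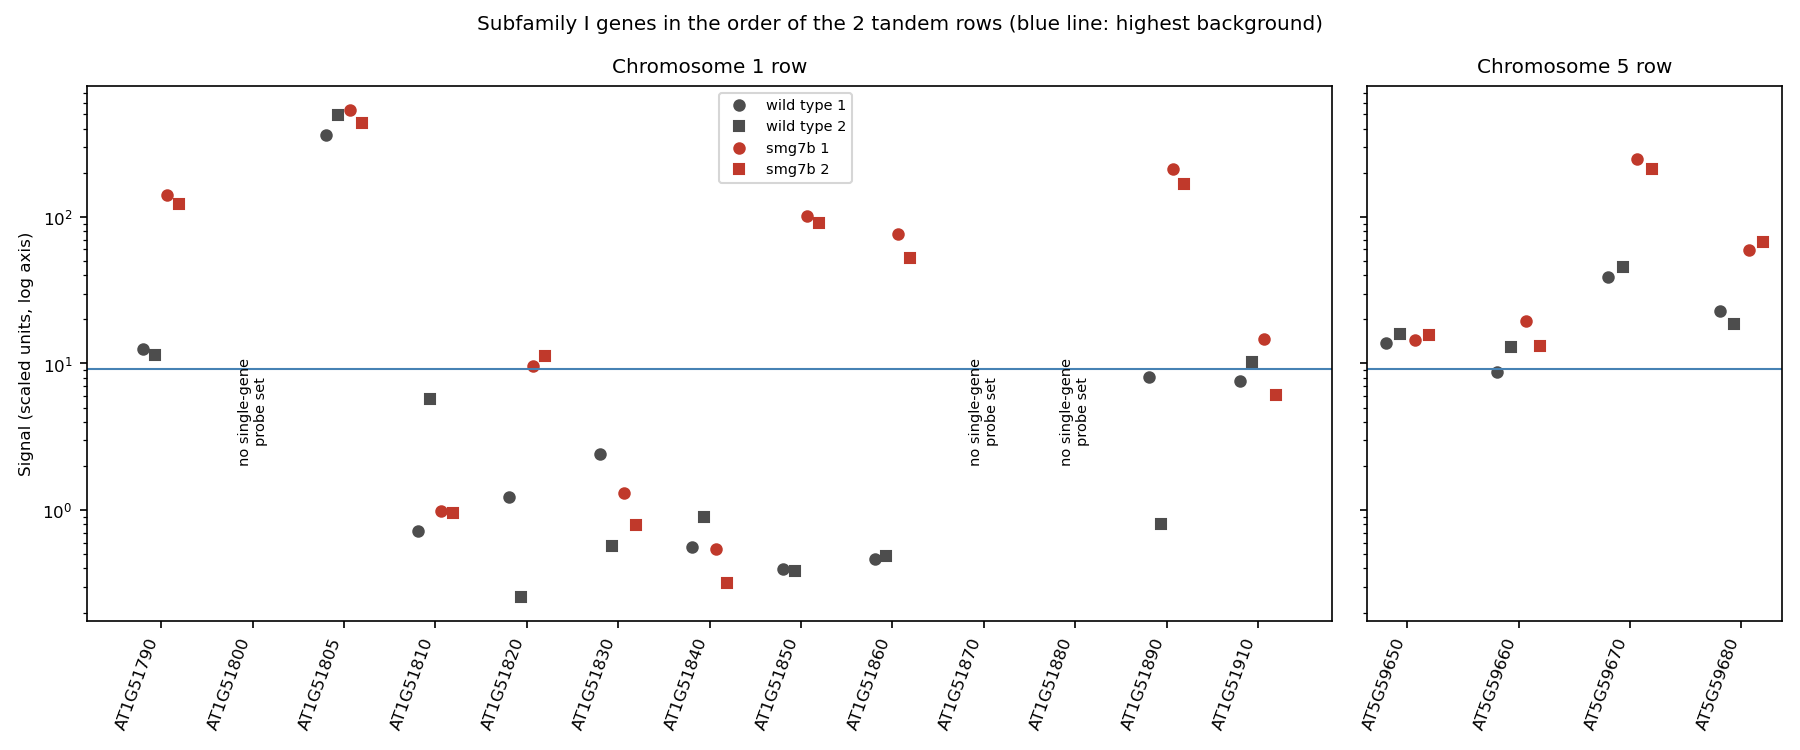
Signal (scaled units, log axis) on each array for the subfamily I genes of the chromosome 1 row (left) and the chromosome 5 row (right), in the order of the reference table, with wild type grey, smg7b red, circles for replicate 1, squares for replicate 2 and a blue line at the highest background of 9.21 units. Each row holds genes with both smg7b points far above both wild-type points, as well as genes whose points overlap or lie under the line.

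Genes outside the subfamily that flank the 5 members were also examined. Taking the 3 nearest measured loci on each side, 9 different neighbours were outside the subfamily. Of these, 6 were too dim for the filtered test and 0 of the other 3 passed in limma (0 with an unadjusted p below 0.05, and 0 of the 9 without the filter), beside 20.3% and 10.5% of all probe sets, at which shares few or no calls would fall among so few genes. AT1G51730 gave -0.088 (standard error 0.19, adjusted p = 0.787), AT1G51745 gave -0.089 (standard error 0.24, adjusted p = 0.831) and AT5G59740 gave -0.46 (standard error 0.34, adjusted p = 0.375). AT5G59700, the kinase gene next to AT5G59680 and of another subfamily, read 22.9 and 15.3 on the wild-type arrays and 21.2 and 14.5 on the smg7b arrays.

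Elsewhere in the subfamily, AT1G51620 read 3.89 and 7.10 on the wild-type arrays and 19.2 and 14.0 on the smg7b arrays, without passing (adjusted p = 0.180 without the filter). Some dim genes had lower signals in smg7b. AT2G28970 read 9.18 and 8.93 on the wild-type arrays and 1.07 and 0.69 on the smg7b arrays, and AT3G46370 read 6.17 and 14.2 against 1.02 and 0.62, both just short of the threshold without the filter (adjusted p = 0.0568 and 0.0569). For AT2G28970 the wild-type values lie so near the background that the fold that can be stated is at least 1.17-fold lower. With every value raised to the highest background of any array, its difference was 0. No fold is stated for AT3G46370, because its first wild-type value lay below the background of its own array. AT1G07560 read 11.8 and 14.8 on the wild-type arrays and 4.29 and 4.76 on the smg7b arrays. This was at least 1.71-fold lower (adjusted p = 0.225), and AT5G48740 read 17.7 on both wild-type arrays against 11.4 and 7.68 (adjusted p = 0.378). The other dim genes, AT1G05700, AT1G07550, AT1G49100, AT2G04300, AT2G19210, AT2G19230, AT2G28960, AT2G28990, AT2G29000, AT3G21340, AT3G46340, AT3G46350, AT3G46400, AT4G20450, AT4G29450 and AT4G29990, had no signal above 11.7 units on any array and adjusted p-values from 0.350 to 0.924 without the filter.

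A further list held 8 malectin-like relatives, of which 5 had a single-gene probe set and 2 were tested. In limma 0 of the 2 passed, beside 20.3% of all probe sets tested, and 0 had an unadjusted p below 0.05. With 2 genes nothing is read from this count. AT1G25570 gave 0.036 (standard error 0.28) and AT3G05990 gave -0.065 (standard error 0.21). Among the dim ones, AT3G46280 read 6.16 and 1.67 on the wild-type arrays and 38.4 and 33.3 on the smg7b arrays. This was at least 5.51-fold higher (adjusted p = 0.0166 without the filter). With the Actin ratio in the model its log2 difference moved from 3.48 to 4.89. Leaving out either smg7b array ended this call (adjusted p = 0.205 without replicate 1 and 0.132 without replicate 2). AT3G19230 (16.0 and 6.58 against 17.2 and 12.7) and AT3G46270, which lay below background on all arrays, did not pass.

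The CrRLK1L kinases, the subfamily of FERONIA (FER), carry malectin-like domains without leucine-rich repeats and are known from the sensing of cell wall state and of secreted RALF peptides. Of 17 listed, 12 had a single-gene probe set and 7 were tested, and 4 of the 7 rose in smg7b and 0 fell, beside 11.3% and 9.00% of all probe sets. The median of the 7 was 0.93. The list was chosen with earlier results of these data known, so the count, the median and the adjusted p-values of its genes are a description. AT5G39020 read 32.9 and 42.3 on the wild-type arrays and 285 and 175 on the smg7b arrays, a rise of 2.58 (standard error 0.26, adjusted p = 3.55e-05 in limma). With the Actin ratio in the model this rise was 1.89. AT5G39030, its neighbour, read 27.8 and 34.0 against 99.9 and 93.6, a rise of 1.65 (adjusted p = 5.88e-04). AT2G23200 read 43.0 and 93.7 against 222 and 201, a rise of 1.74 (adjusted p = 0.00206), which with the Actin ratio in the model was 0.75 (adjusted p = 0.188). The fourth, AT2G39360, named after its values were seen, rose by 0.93 (adjusted p = 0.0283), a call lost without wild-type replicate 1 (0.58, adjusted p = 0.0929), without smg7b replicate 1 (0.81, 0.241), without smg7b replicate 2 (1.06, 0.0769), with the Actin ratio in the model (0.22, 0.834) and without the filter (0.0539).

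The better known CrRLK1L genes did not pass. THE1, a receptor that monitors cell wall integrity, gave 0.30 (standard error 0.20, adjusted p = 0.320) and AT5G24010 gave -0.072 (standard error 0.26, adjusted p = 0.872). FER read 480 and 225 on the wild-type arrays and 218 and 230 on the smg7b arrays, a log2 difference of -0.55 (standard error 0.29, adjusted p = 0.210) that rested on wild-type replicate 1. Without wild-type replicate 2 it was -1.10. ANX1 and ANX2, receptors known from pollen, stayed below background on all 4 arrays.

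Of the receptors and partners of pattern-triggered immunity, the layer in which IOS1 and FRK1 act, few had a single-gene probe set. Among surface receptors and co-receptors, 2 of 17 were measured and 1 was tested, and it passed, beside 20.3% of all probe sets tested. With 1 tested gene, and lists chosen with earlier results of these data known, nothing is read from this count. The adjusted p-values of the genes on these lists are likewise a description. SD1-29, a lectin receptor kinase known to sense bacterial lipid metabolites, read 32.7 and 41.7 on the wild-type arrays and 185 and 117 on the smg7b arrays, a rise of 2.00 (standard error 0.27, adjusted p = 2.93e-04). With the Actin ratio in the model this rise was 1.33. EFR, the receptor of the bacterial elongation factor Tu, was too dim for the filtered test and read 7.62 and 10.9 against 14.6 and 27.5. Of the signalling components 1 of 16 was measured, and nothing is read from a count over 1 gene. BIK1, the cytoplasmic kinase that relays signals from several such receptors, read 75.3 and 74.1 on the wild-type arrays and 166 and 147 on the smg7b arrays, a rise of 1.07 (standard error 0.20, adjusted p = 0.00335), a call that ended in the fit lacking smg7b replicate 1 (adjusted p = 0.0714) and with the Actin ratio in the model (0.0521).

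Of 14 genes listed as responsive to microbial patterns, 3 were measured and 1 was tested, and it passed, beside 20.3% of all probe sets tested. Nothing is read from a count over 1 gene. This list too was chosen with earlier results of these data known, so its adjusted p-values are a description. AT5G64120, a cell wall peroxidase gene, read 30.6 and 31.3 on the wild-type arrays and 477 and 647 on the smg7b arrays, a rise of 4.16 (standard error 0.21, adjusted p = 1.505e-07). AT2G17740 read 7.64 and 7.85 against 25.1 and 46.4 (adjusted p = 0.0299 without the filter), a call lost when either smg7b array was left out (adjusted p = 0.122 and 0.276), with the Actin ratio in the model (0.119) and with a pseudocount of 32 (0.0780). WRKY22, a transcription factor of the flagellin response, read 21.2 and 14.8 against 21.1 and 10.9, with overlapping groups.

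**Figure D5:**
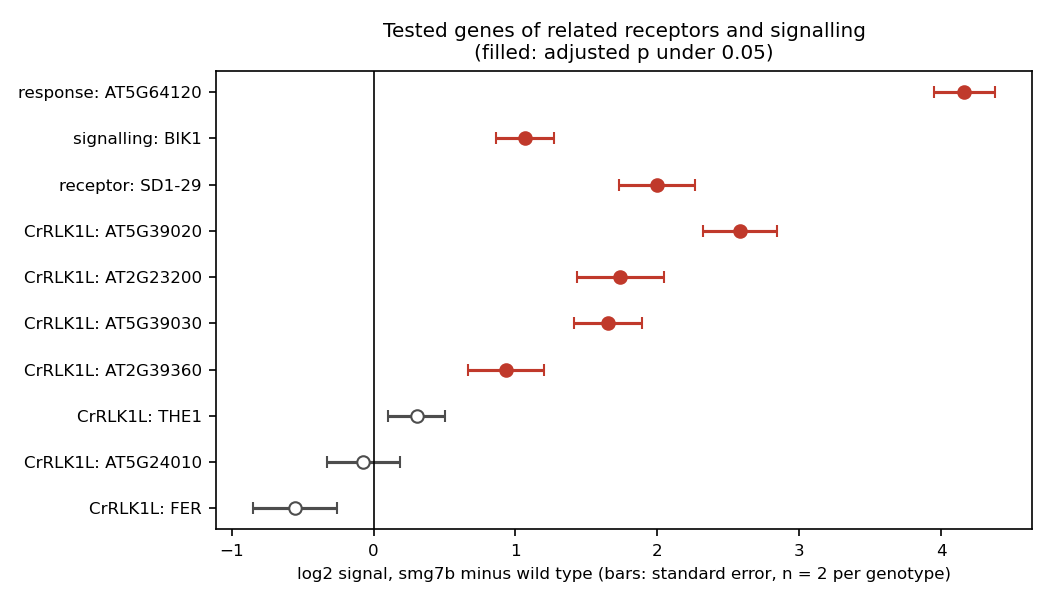
The log2 difference between smg7b and wild type (horizontal axis, bars for limma's moderated standard error, n = 2 per genotype) of the 10 tested genes of the CrRLK1L, surface receptor, signalling and pattern response lists. Filled red points passed an adjusted p of 0.05 in limma and run from 0.93 to 4.16; the open points are THE1, AT5G24010 and FER.

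The genes with the profile most like the members were ranked by the root mean square difference between centred log2 profiles over the 4 arrays, taking the mean profile of the 5 members. AT3G57700 was closest (0.082 log2 units), with 14.6 and 10.5 on the wild-type arrays and 89.2 and 71.8 on the smg7b arrays. AT5G25440 followed (0.085), with 43.2 and 28.5 against 227 and 204. The next were ZYP1b (0.14), AT5G22430 (0.16) and AT5G59070 (0.16), each below background on both wild-type arrays. ZYP1b was also near background in smg7b (9.15 and 7.14, the first below the background of its array). The ranking looked for a profile that is higher in smg7b, so nothing is read from the direction of these 5 genes. The likeness is a description over 4 arrays.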

How the data were processed

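RNA of 2 wild-type and 2 smg7b samples, grouped by title, was hybridised to ATH1 arrays. The deposited values are 1 intensity per probe set and array. MAS5 and GCOS made them, per the submitters' processing notes, with versions not given in the sources used here. The 2% trimmed mean was 100.01 on each array, so the authors had scaled the signals. Dim signals keep noisy log2 values, which can inflate folds.

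Signals were put on the log2 scale without a pseudocount and 64 control probe sets were left out. The test covered probe sets whose mean log2 reached the 40th percentile (4.32) and used limma 3.58.1 in R 4.3.3 (lmFit and eBayes with an intensity trend, genotype as the only term, Benjamini-Hochberg adjustment, threshold 0.05). A probe set had 11.6 degrees of freedom, 9.63 of them from the prior, in the fit of all arrays with genotype alone. Leaving out an array leaves 1 array in a genotype, and the Actin ratio takes up a further residual degree of freedom. The p-values and counts of those fits are therefore not comparable with the main ones. With 2 arrays against 2 an exact permutation test of 1 probe set cannot go below p = 0.333, and the number of arrays limits the precision. On simulated data with 13648 probe sets tested, 10% of those changed 1.5-fold, 62% of those changed 2-fold and 98% of those changed 4-fold were recovered (50 each). The simulated noise followed limma's own variances, and few probe sets were changed, whereas 20.3% were called in the real comparison. These shares are therefore a check of the code and no estimate of power for these data.

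Probe sets were named through the platform table (13513 with 1 gene, 503 with several, 8794 unnamed here), of which 13436 matched the RefSeq table of TAIR10.1 by gene identifier. That table also gave the order of genes, and no coordinates are printed because the labels name no build. The members and lists were chosen with earlier results of these data known, and the lists by locus from general knowledge. The adjusted p-values of listed genes therefore describe the comparison and are not independent tests of it. Genes were named by rule: the 5 members, all measured subfamily I genes and malectin-like relatives, up to 3 highest and 3 lowest tested genes of each other list, the targeted gene, the 3 nearest measured loci on each side of each member, and the 5 most similar profiles. Dim genes of those other lists, and the fourth CrRLK1L call, were named after their values were seen. The brightest probe set stood for a gene that has several. Alternatives were other scalings, filters, a pseudocount of 32, floors, moderation, thresholds, a replicate block, the Actin ratio in the model and each array left out.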

Additional observations from a re-analysis of the deposited data

How the results depend on the processing

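Among the 5 kinase genes, a pseudocount of 32 gave log2 differences of 2.61 for AT1G51890, 1.90 for AT1G51790, 1.81 for AT5G59670 and 0.85 for AT5G59680, since it shrinks dim genes by construction. It also gave 1.88 for AT5G39020, 1.03 for AT5G39030, 1.38 for SD1-29 and 3.22 for AT5G64120, which kept their calls. With every value raised to the highest background of any array AT1G51890 gave 4.35, and with the Actin ratio in the model AT1G51890 gave 8.70, AT5G59670 gave 2.14 and AT5G59680 gave 1.97. AT1G51805 turned to -0.35 in that model and ranged from -0.034 (without wild-type replicate 1) to 0.42 with single arrays left out. Over all probe sets tested the count of calls was 1247 in that model, 1335 at an adjusted p of 0.01 and 980 to 4325 with single arrays left out. Without the filter it was 2383, and then 1355 with a pseudocount of 32, 3845 with values raised to the background of their array, 1101 in that model, 1060 at an adjusted p of 0.01 and 483 to 3655 with single arrays left out. Of the other subfamily I genes, 0 were called with the filter, 2 with a pseudocount of 32, 1 with values raised to the background of their array, 2 with values raised to the highest background, 0 to 1 with single arrays left out and 3 without the filter. The floors and the pseudocount raise the mean of genes that are off in wild type, so that more of them enter the test. Without the filter the count was 5 after median centring, with AT2G28970 and AT3G46370 added on the lower side, and 2 to 3 with single arrays left out. Median centring lowered the median log2 difference of all tested probe sets by 0.12 (shift -0.12). Of the malectin-like relatives 1 was called without the filter. For CrRLK1L 2 were called in that model, for receptor signalling 0 in that model and 0 to 1 with single arrays left out, and for pattern response 2 without the filter. Some genes that had not passed changed sign: AT1G25570 (-0.081 after median centring, -0.070 after quantile normalization, -0.26 to 0.33 with single arrays left out), FER (from -0.55 to 0.37) and AT1G51730 (0.12) in the model with the Actin ratio, AT5G24010 (-0.15 to 0.0095 as single arrays were left out), AT3G05990 (-0.14 to 0.015, likewise) and AT1G51745 (-0.21 to 0.032, likewise). The cause was not tested. The replicate numbers were shared by the genotypes, but deviations of same-numbered arrays correlated at -0.15, so the numbers give no sign of pairing. With the replicate block 2488 probe sets were called, the members' differences were those reported, and 5 other subfamily I genes were called without the filter. With a crossed replicate block, chosen after seeing the data, 3988 probe sets were called (3756 without the filter). Fits with an array left out leave 1 array in a genotype, so their counts and p-values are not comparable with those of all arrays. A list of relatives by protein similarity was not run. The raised common floor and the alternatives on the unfiltered fit were also chosen after seeing the data. Values below background limit what the dim genes can show.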
